A study of Mus musculus with 8 samples.

Results

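The 39 genes described here drive or brake cell division, or belong to the p53 pathway, and their transcripts were measured in whole mouse hearts with and without a cardiomyocyte deletion of Elmsan1. They were chosen as a named list: replication helicase and clamp genes, genes of nucleotide supply, cyclin-dependent kinases, cyclins, kinase inhibitors, Rb and E2F genes, mitosis genes and p53 genes. All 39 were found by gene identifier among the 45706 genes of the deposited table, and all 39 were among the 15289 genes with enough counts to be tested.

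The hearts came from male mice aged 8 weeks, with 1 RNA-seq library per sample and 8 libraries in all. The 4 knockout hearts (cKO) carried Elmsan1 fl/fl;aMHC-Cre+/-, in which the Cre recombinase is driven by the alpha myosin heavy chain promoter, active in heart muscle cells, so that non-muscle cells keep the gene. The 2 floxed controls carried Elmsan1 fl/fl with no Cre, and the 2 Cre controls carried aMHC-Cre+/- with no floxed allele named in the labels. Elmsan1, also named Mideas, encodes a scaffold of a histone deacetylase complex, and the comparison asks how its loss in heart muscle changes transcription.

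Cells enter division when D-type cyclins with Cdk4 or Cdk6 phosphorylate the retinoblastoma protein Rb, which frees E2F factors to switch on the genes of DNA replication, and later waves of cyclins and kinases carry the cell through mitosis. p53 brakes this engine, mainly by raising the inhibitor p21, which Cdkn1a encodes. Heart muscle cells of the adult mouse have mostly left the cycle, so that in whole heart tissue much of the mitotic RNA can come from endothelial cells, fibroblasts and immune cells.

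The libraries held between 17509564 and 25833259 estimated counts, of which 22.1% to 29.3% fell on mitochondrial genes. The targeted gene was at 12.0 to 15.5 CPM, the counts scaled to a common library size with TMM factors, in the cKO hearts and at 25.3 to 28.6 CPM in the controls, a 1.85-fold lower level. Cardiomyocyte markers summed to 61054 to 71812 CPM in the cKO hearts and 75830 to 82157 CPM in the controls, with 3 of 12 higher and 6 lower. After correction for transcript length and GC content, none of the 12 was higher and 7 were lower. Endothelial markers summed to 1516 to 1883 CPM against 1092 to 1237 CPM (8 of 12 higher, 1 lower). Fibroblast markers summed to 2532 to 3357 CPM against 1770 to 2425 CPM (5 of 12 higher, none lower), and macrophage markers to 365 to 474 CPM against 240 to 301 CPM (7 of 12 higher, none lower). None of these 4 lists had a marker at 0 in any library, and their part in the results for the cell cycle genes was not tested. In bulk tissue, fewer cells of a type and less RNA per cell cannot be told apart. The Cre replicate 1 heart stood apart in lymphocyte markers, which summed to 20.4 CPM there and to at most 6.17 CPM in any other library. The defining markers Cd3e, Cd8a, Nkg7 and Ncr1 were at 0 in at least 1 library, and of the 6 lymphocyte markers tested 1 was higher in cKO hearts. Erythroid markers summed to 509.8 to 1348 CPM in the cKO hearts and 500.3 to 776 CPM in the controls, with none of 5 tested called. Adipocyte markers summed to 612 to 1207 CPM and 298 to 521 CPM in the same order, and smooth muscle and pericyte markers to 638 to 1056 CPM and 737 to 819.8 CPM. Of these, 1 of 5 adipocyte markers was higher, and of 10 smooth muscle and pericyte markers 1 was higher and 1 lower. Beside these counts of markers, 25.6% of all 15289 genes tested were higher in cKO hearts and 26.5% lower.

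Between the cKO hearts and both control groups, whose log2 means were averaged, 10 of the 39 genes were higher and 7 were lower at an adjusted p under 0.05 (quasi-likelihood test of edgeR, Benjamini-Hochberg adjusted over all genes tested). Over all 15289 genes, 52.1% were called, 25.6% higher and 26.5% lower, so the share of cell cycle genes called, 43.6%, was below the background of this comparison and the share called higher was near it. The median log2 difference of the 39 genes was 0.37, against 0.04 over all genes tested. The genes called higher were Mcm6, Mcm7, Cdk2, Cdk4, Ccnd3, E2f1, Aurka, Aurkb, Plk1 and Trp53, and the genes called lower were Mcm4, Ccnd2, Cdkn1b, Rb1, E2f3, Cenpf and Ccng1. Replication genes, D cyclins, Rb and E2F genes, mitosis genes and p53 genes thus each held members called in both directions. In 9 genes every cKO library lay above every control library and in 8 every one lay below, against 23.4% and 25.9% of all genes tested (49.3% together). In the other 22 genes the groups overlapped. The cKO hearts also differed among themselves: of the 39 genes, 15 had their highest value in cKO replicate 4, 8 in cKO replicate 3, 2 in cKO replicate 1 and 0 in cKO replicate 2, and 6 had it in Cre replicate 1.

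**Figure D1:**
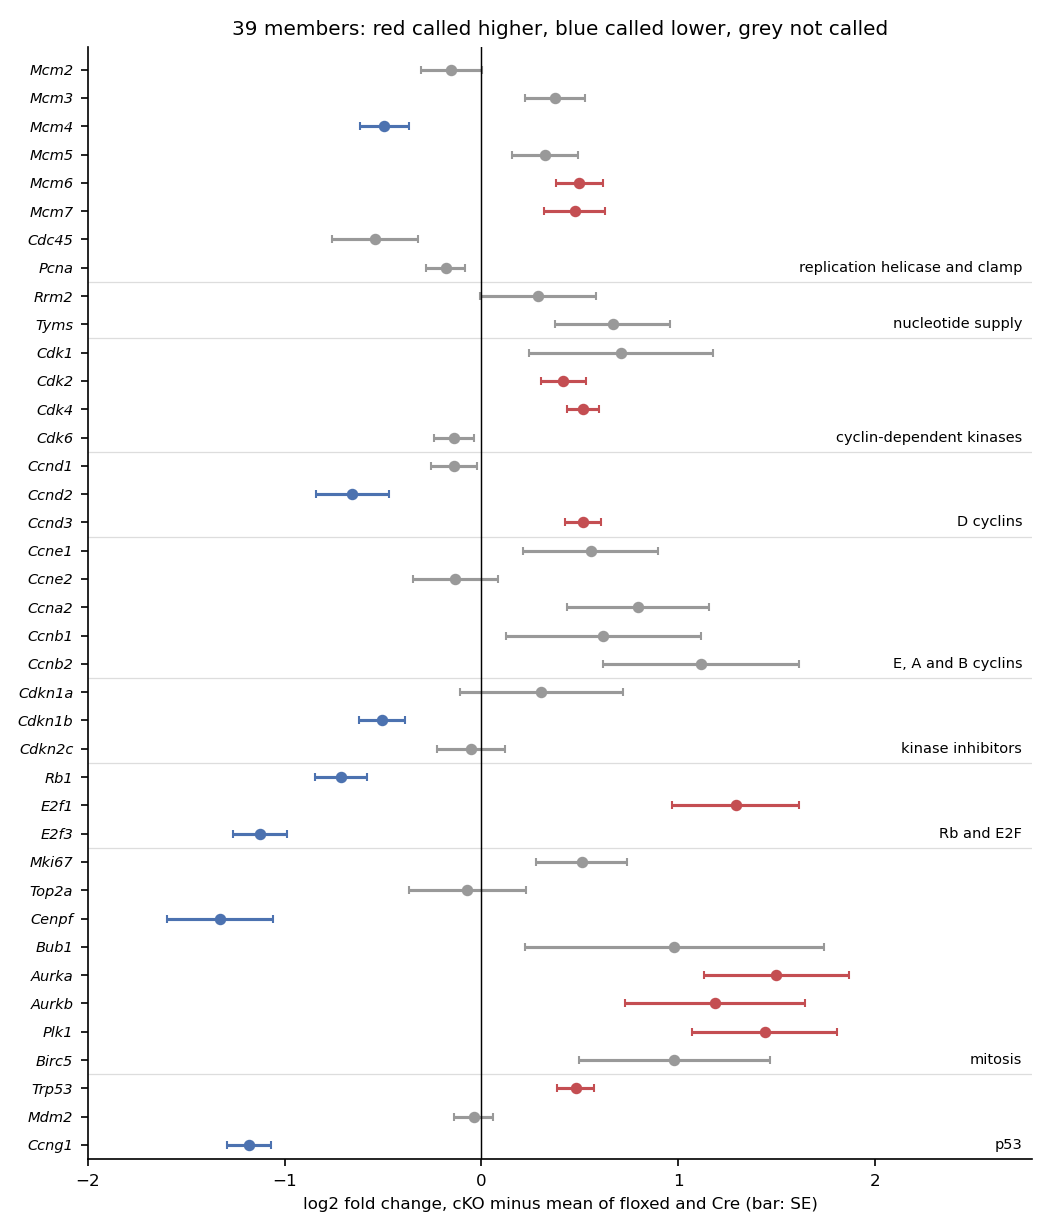
Log2 difference of each of the 39 genes between the 4 cKO hearts and the mean of the 2 floxed and 2 Cre hearts, with its standard error, grouped by role. Red points were called higher (10 genes), blue points lower (7 genes) and grey points neither; the widest bars belong to mitotic genes with low counts, such as Bub1.

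The promoters of 5 of these genes are printed here because they hold motifs classically described for these groups: an E2F site in replication genes, a cell cycle homology region (CHR) and CCAAT boxes in mitotic genes, and a p53 half-site in p53 targets. RefSeq promoter windows from GRCm38.p6, running from 250 bases before to 50 bases after the annotated start, were matched for 32 of the 39 genes, 37 windows in all. Each is given 5′ to 3′ on the strand of the gene, with motif matches on either strand in capitals. A match is a description of the letters and not evidence of a bound site. The motifs searched were, for E2F, TTTCGCGC or TTTGGCGC or TTTCCCGC or TTTGCCGC, for CHR TTTGAA or TTCGAA, the box CCAAT, and the p53 half-site by its name.
Mcm6, replication helicase, called higher, E2F and CCAAT matches, chr1:128359656-128359955, minus strand: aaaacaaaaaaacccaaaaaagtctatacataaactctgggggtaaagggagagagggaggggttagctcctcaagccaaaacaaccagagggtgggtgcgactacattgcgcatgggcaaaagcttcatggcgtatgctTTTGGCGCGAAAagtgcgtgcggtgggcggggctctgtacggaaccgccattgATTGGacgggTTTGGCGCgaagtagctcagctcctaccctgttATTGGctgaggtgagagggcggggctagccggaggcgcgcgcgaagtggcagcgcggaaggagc
E2f3, E2F factor, called lower, E2F, CHR and CCAAT matches, chr13:29986014-29986313, minus strand: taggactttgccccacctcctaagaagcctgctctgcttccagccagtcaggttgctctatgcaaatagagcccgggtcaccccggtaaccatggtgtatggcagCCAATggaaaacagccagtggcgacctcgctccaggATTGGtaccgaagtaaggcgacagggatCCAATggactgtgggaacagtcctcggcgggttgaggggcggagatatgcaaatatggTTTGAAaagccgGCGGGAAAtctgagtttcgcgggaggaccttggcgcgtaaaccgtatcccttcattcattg
Plk1, mitotic kinase, called higher, CHR and CCAAT matches, chr7:122159185-122159484, plus strand: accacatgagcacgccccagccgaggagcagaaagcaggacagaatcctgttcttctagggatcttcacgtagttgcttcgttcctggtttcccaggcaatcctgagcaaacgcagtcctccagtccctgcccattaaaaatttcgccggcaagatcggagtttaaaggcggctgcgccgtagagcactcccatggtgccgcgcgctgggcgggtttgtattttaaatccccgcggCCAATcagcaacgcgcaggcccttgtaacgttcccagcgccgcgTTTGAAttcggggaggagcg
Cenpf, kinetochore protein, called lower, CHR and CCAAT matches, chr1:189688037-189688336, minus strand: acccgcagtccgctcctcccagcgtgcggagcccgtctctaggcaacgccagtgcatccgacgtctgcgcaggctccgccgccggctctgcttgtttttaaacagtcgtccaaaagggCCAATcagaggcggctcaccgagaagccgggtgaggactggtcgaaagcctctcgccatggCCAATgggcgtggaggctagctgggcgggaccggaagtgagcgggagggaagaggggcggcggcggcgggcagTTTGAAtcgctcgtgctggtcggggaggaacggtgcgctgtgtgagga
Ccng1, p53 target, called lower, p53 half-site and CCAAT matches, chr11:40755237-40755536, minus strand: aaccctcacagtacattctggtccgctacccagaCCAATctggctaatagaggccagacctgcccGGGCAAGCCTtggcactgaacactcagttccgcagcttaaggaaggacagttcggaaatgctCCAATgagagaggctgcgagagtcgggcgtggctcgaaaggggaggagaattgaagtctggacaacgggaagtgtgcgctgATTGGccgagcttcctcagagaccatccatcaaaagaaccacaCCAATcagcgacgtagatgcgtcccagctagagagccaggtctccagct

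An E2F match was found in 7 of the 37 windows (18.9%) and in 2.26% of all 32851 promoter windows of the same length. The replication genes held 4 of these 7, and Mcm6 alone had 3 E2F matches, of which 2 overlap. A CHR match stood in 32.4% of the members' windows and 19.2% of all windows; it was present in 6 of the 7 windows of mitotic genes. CCAAT stood in 70.3% against 37.4%, and the p53 half-site in 16.2% against 8.36%, with a match in each of the 3 windows of Trp53, Mdm2 and Ccng1. Each motif was found on both sides of the calls: E2F matches stood in 3 of 11 windows of genes called higher, 1 of 5 of genes called lower and 3 of 21 of genes not called. For CHR the same counts were 3 of 11, 2 of 5 and 7 of 21. Plk1 and Cenpf, with CHR and CCAAT matches in both, were called in opposite directions, and so were Mcm6 and E2f3. E2f3 has 2 windows, and the one not printed, chr13:29984342-29984641, held none of the 4 motifs.

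The MCM helicase is a ring of the products of Mcm2 to Mcm7 that unwinds DNA ahead of the fork, and its subunit genes were called in both directions. Mcm6 was at 10.1, 10.03, 9.76 and 12.03 CPM in cKO hearts, 6.72 and 7.61 CPM in floxed and 8.05 and 7.32 CPM in Cre hearts. All 4 cKO hearts lay above all 4 controls, cKO replicate 4 highest, and the gene was called higher (log2 difference 0.50, SE 0.12, 1.41-fold higher, adjusted p = 0.00487). Mcm7 was at 10.7, 10.9, 9.72 and 14.7 CPM in the cKO replicates, 7.41 and 7.17 in floxed and 10.9 and 7.92 in Cre hearts. The ranges overlapped, since the Cre replicate 1 heart reached the level of the cKO hearts, and the gene was called higher (log2 difference 0.48, SE 0.16, 1.39-fold higher, adjusted p = 0.0246). Mcm4, in contrast, was at 5.94, 4.94, 6.04 and 5.18 CPM in cKO hearts, 7.62 and 6.98 CPM in floxed and 8.28 and 8.27 CPM in Cre hearts. Every cKO heart lay below every control, and Mcm4 was called lower (log2 difference -0.49, SE 0.13, 1.41-fold lower, adjusted p = 0.00707). With library size as the only scaling, Mcm4 was not called (log2 difference -0.36, adjusted p = 0.0618). The call of Mcm7 was lost without cKO replicate 4 (adjusted p = 0.0638), floxed replicate 1 (0.0638), floxed replicate 2 (0.0842) or Cre replicate 2 (0.11), and under an offset that corrects for length and GC (0.0626).

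The other replication genes did not pass. Mcm3 was at 7.36, 6.32, 6.42 and 7.27 CPM in the cKO replicates, 4.54 and 5.7 in floxed and 6.3 and 4.56 in Cre hearts (log2 difference 0.37, SE 0.15, adjusted p = 0.0571). Its lowest cKO value was just above its highest control value, and Mcm3 was called in 5 of 20 alternatives. These included upper-quartile scaling (log2 difference 0.48, adjusted p = 0.0232) and library size alone (0.50, adjusted p = 0.0291). A filter at a mean of at least 1 CPM (0.40, adjusted p = 0.0428) and pooled controls (0.39, adjusted p = 0.0397) were 2 more. Without Cre replicate 1, the last of the 5, the log2 difference was 0.50. Mcm5 was at 3.84, 3.75, 5.27 and 4.76 CPM in cKO hearts, 3.51 and 3.73 CPM in floxed and 3.46 and 3.41 CPM in Cre hearts, with no overlap of the groups and an adjusted p of 0.126. Mcm2 was at 6.84, 5.98, 6.25 and 4.91 CPM in the cKO replicates, 6.64 and 5.65 in floxed and 8.2 and 6.11 in Cre hearts, with overlapping groups and a log2 difference of -0.15 (SE 0.15, adjusted p = 0.434). Cdc45, which joins the MCM ring in the active helicase, was at 1.68, 1.63, 1.54 and 1.33 CPM in cKO hearts, 2.36 and 1.72 CPM in floxed and 2.39 and 2.56 CPM in Cre hearts. All 4 cKO values lay below all 4 controls, and the log2 difference of -0.54 (SE 0.22) had an adjusted p of 0.0565. Pcna, the sliding clamp of the DNA polymerases, was at 26.5, 21.98, 24.8 and 23.3 CPM in the cKO replicates, 25.5 and 31.1 in floxed and 27.3 and 25.6 in Cre hearts (log2 difference -0.18, SE 0.10, adjusted p = 0.145). Summed over the 8 replication genes, the level was 65.6 to 73.5 CPM in the cKO hearts and 64.3 to 74.9 CPM in the controls. Of the 38 other replication genes tested (polymerases, the remaining fork proteins and ribonucleotide reductase), 5 were higher and 5 lower with a median log2 difference of 0.04. This is 26.3% called, against 52.1% of all genes tested. Pola2 (0.64) and Rfc2 (0.61) rose, and Rfc1 (fell by 0.56 on the log2 scale) and Rrm1 (fell by 0.60) were lower, each with an adjusted p of 0.00139 or less. With the offset Rrm1 was not called (adjusted p = 0.0725).

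Neither gene of nucleotide supply passed. Tyms, thymidylate synthase, was at 1.84, 2.62, 2.4 and 3.28 CPM in cKO hearts, 2.18 and 1.18 CPM in floxed and 1.94 and 1.05 CPM in Cre hearts. The groups overlapped (log2 difference 0.67, SE 0.29, adjusted p = 0.0761). Tyms was called without floxed replicate 1 (adjusted p = 0.0472) or without Cre replicate 1 (adjusted p = 0.0402). Rrm2, the regulated subunit of ribonucleotide reductase, was at 2.31, 2.17, 3.51 and 2.63 CPM in the cKO replicates, 1.58 and 2.6 in floxed and 3.15 and 1.35 in Cre hearts, with an adjusted p of 0.439.

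Of the cyclin-dependent kinases, Cdk4 and Cdk2 rose. Cdk4, the partner of the D cyclins, was at 49.2, 48.7, 47.1 and 49.2 CPM in cKO hearts, 34.6 and 33.2 CPM in floxed and 36.9 and 30.9 CPM in Cre hearts. The 4 cKO hearts lay close together and all above the controls, and the gene was called higher (log2 difference 0.52, SE 0.08, 1.43-fold higher, adjusted p = 0.000448). The means were 48.5 ± 1.01 CPM (SD, n = 4) in the cKO hearts and 33.9 ± 2.54 CPM (SD, n = 4) in the floxed and Cre hearts pooled. Cdk2, the partner of the E and A cyclins, was at 12.7, 13.8, 12.8 and 14.4 CPM in the cKO replicates, 9.72 and 9.73 in floxed and 11.8 and 8.92 in Cre hearts. It did not overlap either and was called higher (log2 difference 0.42, SE 0.12, 1.34-fold higher, adjusted p = 0.0109), though not without Cre replicate 2 (log2 difference 0.30, adjusted p = 0.0603). Cdk6, the other D-cyclin kinase, was at 16.04, 13.3, 16.3 and 13.98 CPM in cKO hearts, 14.9 and 14.7 CPM in floxed and 19.2 and 17.2 CPM in Cre hearts. Its groups overlapped (log2 difference -0.14, SE 0.10, adjusted p = 0.286), and its direction turned with the length and GC offset (log2 difference 0.35, adjusted p = 0.02). Per kilobase of transcript, the Cdk4 level was 10.1 to 13.0 times that of Cdk6 in the controls and 16.2 to 20.5 times in the cKO hearts. With the offset the log2 differences of Cdk4 and Cdk6 were 0.28 and 0.35, so this change in their ratio was not kept. Cdk1, the mitotic kinase, was at 0.947, 0.84, 2.23 and 2.55 CPM in the cKO replicates, 0.9 and 1.23 in floxed and 1.48 and 0.401 in Cre hearts, with wide overlap and an adjusted p of 0.224.

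Among the D cyclins, which carry growth signals to Cdk4 and Cdk6, Ccnd3 rose and Ccnd2 fell. Ccnd2 was at 109.6, 91.4, 89.2 and 55.6 CPM in cKO hearts, 129 and 141 CPM in floxed and 122 and 153 CPM in Cre hearts. Every cKO heart lay below every control, cKO replicate 4 lowest, and Ccnd2 was called lower (log2 difference -0.66, SE 0.19, 1.58-fold lower, adjusted p = 0.0146). Ccnd3 was at 59.4, 65.6, 76.4 and 66.8 CPM in the cKO replicates, 45.1 and 44.4 in floxed and 50.5 and 48 in Cre hearts. Here every cKO heart lay above every control, and the gene was called higher (log2 difference 0.51, SE 0.09, 1.43-fold higher, adjusted p = 0.000807). Ccnd1 was at 58.7, 45.1, 48.7 and 40.9 CPM in cKO hearts, 55.2 and 63.1 CPM in floxed and 45.2 and 50.5 CPM in Cre hearts. The groups overlapped (log2 difference -0.14, SE 0.12, adjusted p = 0.334), and without cKO replicate 1 it was called lower (log2 difference -0.25, adjusted p = 0.0426). Per kilobase of transcript, Ccnd2 had the highest level of the 3 in all 4 controls and in cKO replicate 1, and Ccnd3 in the other 3 cKO hearts. The Ccnd3 level per kilobase was 0.515 to 0.681 of that of Ccnd2 in the controls, and 0.89, 1.18, 1.41 and 1.97 of it in cKO replicates 1 to 4. Summed, the D cyclins were at 163 to 228 CPM in the cKO hearts and 217 to 252 CPM in the controls. With the length and GC offset Ccnd2 was no longer called (log2 difference -0.29, adjusted p = 0.137), while Ccnd3 was.

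None of the 5 E, A and B cyclins passed the test, and all but Ccne2 had a positive log2 difference. Ccna2, which acts in S phase and G2, was at 2.1, 2.91, 4.41 and 3.77 CPM in the cKO replicates, 0.985 and 2.36 in floxed and 3.08 and 1.25 in Cre hearts. It overlapped, with a log2 difference of 0.80 (SE 0.36, adjusted p = 0.088) and a call without floxed replicate 2 (adjusted p = 0.0392) or Cre replicate 1 (adjusted p = 0.0265). Ccnb2, a mitotic cyclin, was at 0.473, 0.988, 2.31 and 2.25 CPM in cKO hearts, 0.557 and 0.246 CPM in floxed and 1.48 and 0.902 CPM in Cre hearts. The highest values were those of cKO replicates 3 and 4, and cKO replicate 1 lay within the controls (log2 difference 1.12, SE 0.50, adjusted p = 0.0831; 1.39 and adjusted p = 0.0163 without cKO replicate 1). Ccnb1, its relative, was at 0.368, 0.543, 0.985 and 1.68 CPM in the cKO replicates, 0.343 and 0.639 in floxed and 0.911 and 0.501 in Cre hearts (log2 difference 0.62, SE 0.49, adjusted p = 0.314). The G1/S cyclins Ccne1 and Ccne2 had log2 differences of 0.56 (SE 0.34, adjusted p = 0.195) and -0.13 (SE 0.21, adjusted p = 0.629). Of all 39 genes, 9 had a library with under 10 counts, among them Cdk1, Ccne1, Ccnb1 and Ccnb2, so that for these the depth limits what can be detected.

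Among the kinase inhibitors, Cdkn1b fell. Cdkn1b, which encodes p27, the inhibitor linked to resting cells, was at 43.4, 30.04, 32.2 and 31.8 CPM in cKO hearts, 50.9 and 50.2 CPM in floxed and 49.4 and 44.3 CPM in Cre hearts. All cKO hearts lay below all controls, 3 of them close together and cKO replicate 1 nearest the controls, and the gene was called lower (log2 difference -0.50, SE 0.12, 1.42-fold lower, adjusted p = 0.00434). With the length and GC offset the log2 difference was -0.26 (adjusted p = 0.0707). Cdkn1a was at 13.1, 14.3, 29.6 and 37.1 CPM in the cKO replicates, 10.6 and 20.7 in floxed and 20.1 and 27.01 in Cre hearts. cKO replicates 1 and 2 lay among the low values and cKO replicates 3 and 4 above every control, with a log2 difference of 0.30 (SE 0.41, adjusted p = 0.57). Cdkn2c, which encodes the Cdk4 and Cdk6 inhibitor p18, was at 7.26, 6.37, 10.4 and 10.4 CPM in cKO hearts, 8.91 and 8.94 CPM in floxed and 9.99 and 7.87 CPM in Cre hearts (log2 difference -0.05, SE 0.17, adjusted p = 0.821).

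**Figure D2:**
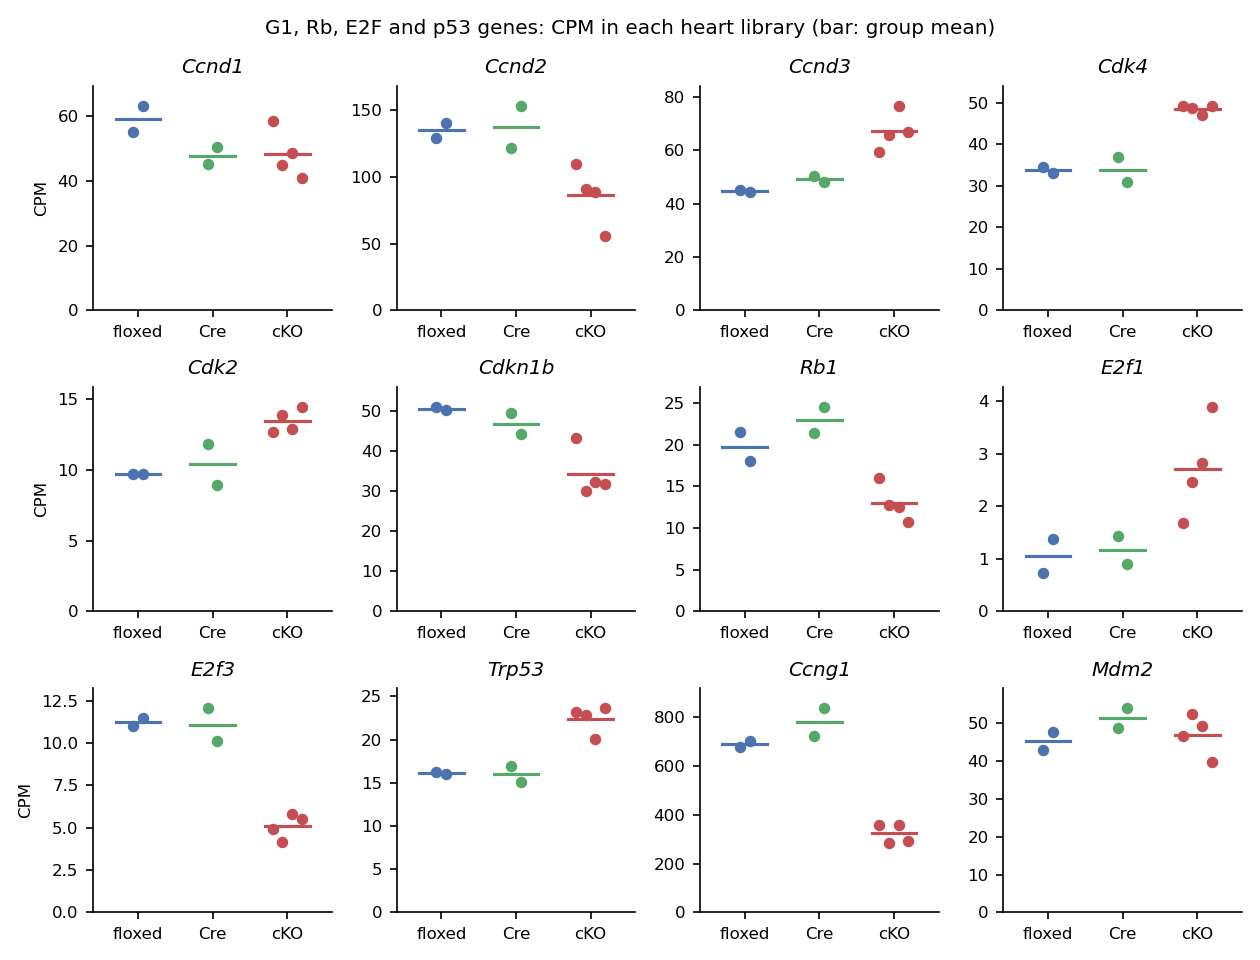
CPM of 12 genes in each heart library, floxed (2 points), Cre (2 points) and cKO (4 points), each axis starting at 0 and the bar giving the group mean. Ccnd2, Cdkn1b, Rb1, E2f3 and Ccng1 lie lower in every cKO heart than in any control, Ccnd3, Cdk4, Cdk2, E2f1 and Trp53 higher, and Ccnd1 and Mdm2 overlap.

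In the Rb and E2F group all 3 genes were called. Rb1, which encodes the retinoblastoma protein (gene ENSMUSG00000022105, chromosome 14, 73183673 to 73325822, GRCm38 with GENCODE M21 annotation), was at 15.99, 12.7, 12.5 and 10.7 CPM in the cKO replicates, 21.5 and 17.98 in floxed and 21.4 and 24.5 in Cre hearts. No cKO heart reached the lowest control, and Rb1 was called lower (log2 difference -0.72, SE 0.13, 1.64-fold lower, adjusted p = 0.00103). E2f3, an E2F factor of the activating kind (gene ENSMUSG00000016477, chromosome 13, 29906575 to 29986063), was at 4.89, 4.15, 5.82 and 5.52 CPM in cKO hearts, 11.01 and 11.4 CPM in floxed and 12.04 and 10.1 CPM in Cre hearts. The cKO hearts were all at 5.82 CPM or less and the controls all at 10.1 CPM or more, and E2f3 was called lower (log2 difference -1.13, SE 0.14, 2.18-fold lower, adjusted p = 8.2e-05). Its mean was 5.1 ± 0.741 CPM (SD, n = 4) in the cKO hearts and 11.2 ± 0.806 CPM (SD, n = 4) in the floxed and Cre hearts pooled. E2f1, another activating E2F (gene ENSMUSG00000027490, chromosome 2, 154559407 to 154569892), was at 1.68, 2.47, 2.83 and 3.88 CPM in the cKO replicates, 0.728 and 1.38 in floxed and 1.44 and 0.902 in Cre hearts. All 4 cKO values exceeded all 4 controls, and E2f1 was called higher (log2 difference 1.29, SE 0.32, 2.45-fold higher, adjusted p = 0.00598), from 17 to 102 counts per library. Per kilobase of transcript the E2f1 level was 0.122 to 0.222 of that of E2f3 in the controls and 0.637, 1.1, 0.898 and 1.3 of it in cKO replicates 1 to 4. Against both controls together, Rb1 and E2f3 stayed called lower in every alternative tried with no minimum fold.

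Of 29 other G1 regulators tested, 4 were higher and 9 lower (median log2 difference -0.09). This is 44.8% called, against 52.1% of all genes tested (25.6% higher and 26.5% lower). Rbl2, which encodes the Rb relative p130, was 2.13-fold lower, E2f6, a repressive E2F, 1.82-fold lower, and Wee1, a kinase that holds back Cdk1, 2.38-fold lower. Cdkn1c, which encodes the inhibitor p57, was 2.61-fold higher. Each of these 4 had an adjusted p of 0.000791 or less. The summed level of this list was 491 to 505 CPM in the cKO hearts and 563 to 577 CPM in the controls, with no overlap.

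Against both controls together the mitosis genes split, with 3 kinases higher and Cenpf lower. Aurka, which encodes the spindle pole kinase Aurora A, was at 0.842, 0.988, 1.24 and 1.83 CPM in cKO hearts, 0.257 and 0.393 CPM in floxed and 0.607 and 0.551 CPM in Cre hearts. Plk1, polo-like kinase, was at 1.05, 1.88, 2.4 and 2.63 CPM in the cKO replicates, 0.557 and 0.393 in floxed and 1.52 and 0.701 in Cre hearts. Aurka did not overlap between the groups (log2 difference 1.5, SE 0.37, 2.83-fold higher, adjusted p = 0.00559). Plk1 overlapped through cKO replicate 1 and Cre replicate 1 and was called higher (log2 difference 1.44, SE 0.37, 2.71-fold higher, adjusted p = 0.00694). Aurkb, the kinase of the chromosomal passenger complex, was at 0.842, 0.642, 1.5 and 1.64 CPM in cKO hearts, 0.471 and 0.393 CPM in floxed and 0.911 and 0.251 CPM in Cre hearts. It overlapped and was close to the threshold (log2 difference 1.19, SE 0.46, 2.28-fold higher, adjusted p = 0.0483). Its call was lost without cKO replicate 3, cKO replicate 4, floxed replicate 1, floxed replicate 2 or Cre replicate 2, with adjusted p between 0.102 and 0.138, and with the offset (0.0974). These 3 kinases had at least 1 library with under 10 counts each: 6 counts for Aurka, 8 for Plk1 and 5 for Aurkb. Against Cre hearts alone none of the 3 was called (adjusted p = 0.0733 for Aurka, 0.153 for Plk1 and 0.194 for Aurkb). Aurkb was not called against floxed hearts alone either (adjusted p = 0.0768).

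Cenpf, which encodes a large kinetochore protein (gene ENSMUSG00000026605, chromosome 1, 189640606 to 189688086), was at 15.6, 10.8, 9.89 and 7.2 CPM in the cKO replicates, 21.2 and 17.8 in floxed and 49.2 and 26.4 in Cre hearts. All 4 cKO hearts lay below all 4 controls, and the Cre replicate 1 heart stood far above the others. Cenpf was called lower (log2 difference -1.33, SE 0.27, 2.51-fold lower, adjusted p = 0.00379), and this call held in every alternative tried with no minimum fold. The mean level of Cenpf was 10.9 ± 3.51 CPM (SD, n = 4) in the cKO hearts. It was 19.5 ± 2.45 CPM (SD, n = 2) in the floxed hearts and 37.8 ± 16.1 CPM (SD, n = 2) in the Cre hearts. Against the Cre hearts alone its log2 difference was -1.81 (adjusted p = 0.0024), and against the floxed hearts alone -0.85 (adjusted p = 0.0626). With the length and GC offset these were -1.34 (adjusted p = 0.00707) and -0.39 (adjusted p = 0.315). Against both controls the offset gave Cenpf a log2 difference of -0.87 (adjusted p = 0.0175). Top2a, the topoisomerase that untangles chromosomes, was also highest in Cre replicate 1, at 2.16, 2.07, 4.15 and 3.43 CPM in cKO hearts, 1.8 and 2.31 CPM in floxed and 6.38 and 3.06 CPM in Cre hearts. Its groups overlapped (log2 difference -0.07, SE 0.30, adjusted p = 0.86). The same heart had the high lymphocyte marker sum given above, with 6.99 CPM of Cd8a; the part of these markers in the Cenpf and Top2a values was not tested.

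The proliferation marker Mki67 was at 6.05, 5.83, 10.3 and 7.5 CPM in the cKO replicates, 4.11 and 3.24 in floxed and 9.42 and 5.31 in Cre hearts. The floxed hearts were lowest and Cre replicate 1 lay among the cKO hearts (log2 difference 0.51, SE 0.23, adjusted p = 0.0881). Mki67 was called without Cre replicate 1 (log2 difference 0.75, adjusted p = 0.0246) and with the offset (log2 difference 1.00, adjusted p = 0.01). Birc5, which encodes survivin of the passenger complex, was at 0.631, 0.939, 1.84 and 2.17 CPM in cKO hearts, 0.557 and 0.786 CPM in floxed and 1.18 and 0.301 CPM in Cre hearts. The groups overlapped (log2 difference 0.98, SE 0.49, adjusted p = 0.112), and the gene was called without Cre replicate 1 (log2 difference 1.64, adjusted p = 0.0293). Bub1, a spindle checkpoint kinase, had between 1 and 23 counts per library and an adjusted p of 0.301.

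Per kilobase of transcript, Cenpf had the highest level of the 8 mitosis genes in all 4 controls and in cKO replicates 1 and 2. In cKO replicate 3 Plk1 and Mki67 exceeded it, and in cKO replicate 4 it ranked above Bub1 only. Summed over the 8 genes, the level was 23.8 to 32.3 CPM in the cKO hearts, 25.7 and 29.1 CPM in the floxed hearts and 36.6 and 69.7 CPM in the Cre hearts. In the controls most of this sum was Cenpf, at 17.8 and 21.2 CPM in floxed and 26.4 and 49.2 CPM in Cre hearts. The median log2 difference of the 8 genes was 0.98 against both controls, with 3 called higher and 1 lower (50%). Between Cre and floxed hearts the median of the 8 genes was 0.90, with none called. Of 32 other mitosis genes tested, 7 were higher and none lower, with a median log2 difference of 0.50. This is 21.9% called, below the 52.1% of all genes tested, of which 25.6% were called higher. Against floxed hearts alone 6 were higher (median 0.66), and against Cre hearts alone 2 (median 0.21). Between Cre and floxed hearts the median was 0.49, with none called. Kif20a, a cytokinesis motor, was 1.83-fold higher, Foxm1, a transcription factor of G2 genes, 2.69-fold, Cdc20, an activator of the anaphase-promoting complex, 2.43-fold, and Cks1b, a Cdk subunit, 1.51-fold. Their adjusted p-values were 0.0347 or less, and with the offset Cks1b was not called (adjusted p = 0.5). Leaving out 1 library at a time gave 3 to 9 of these genes higher.

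**Figure D3:**
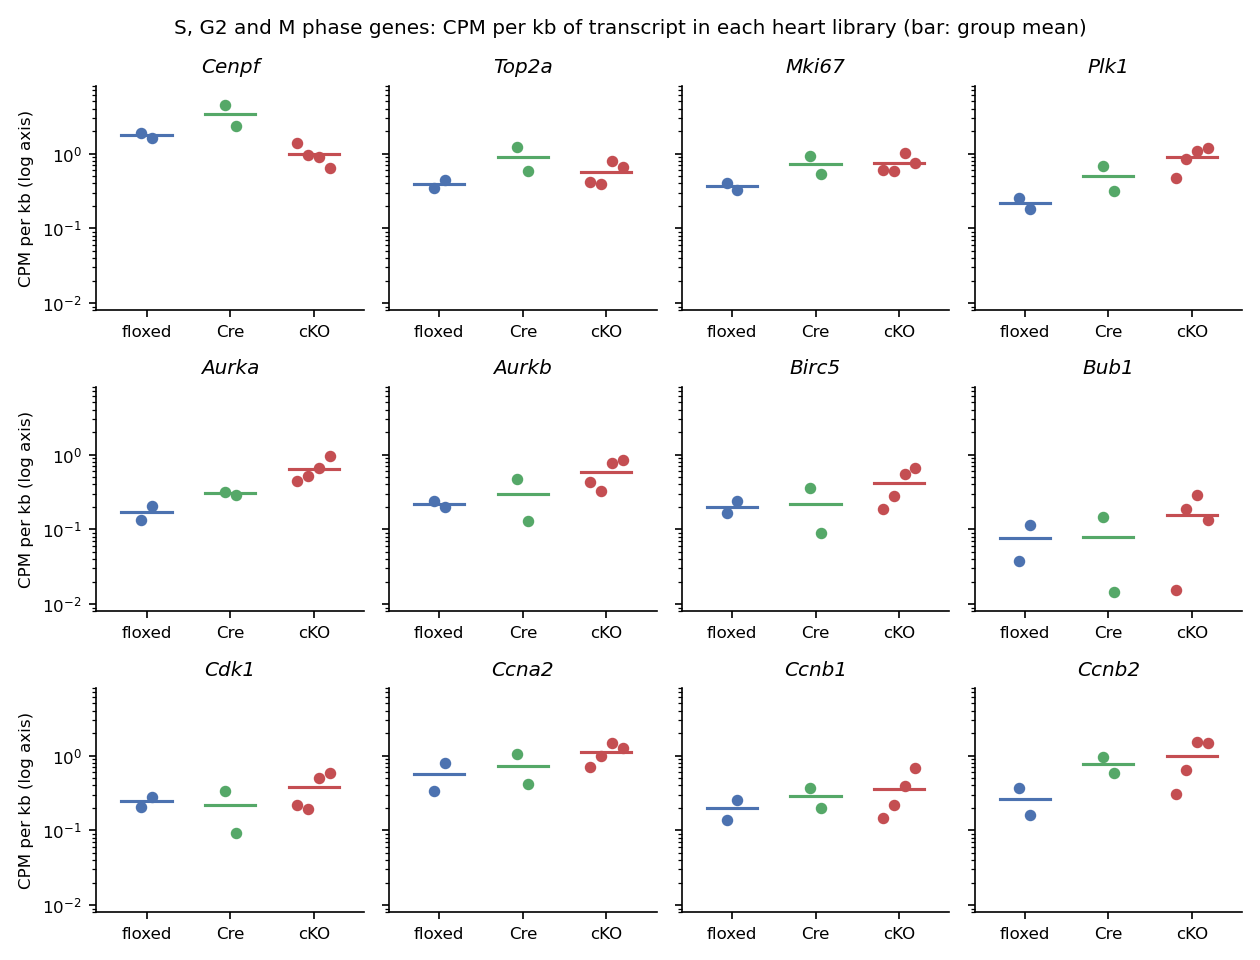
CPM per kilobase of transcript, on a log axis, of 12 genes of S phase, G2 and mitosis in each heart library, with the group mean as a bar. Cenpf lies lower in all 4 cKO hearts than in the controls and is highest in Cre replicate 1, Aurka lies higher in all 4 cKO hearts, and the other 10 genes overlap between the groups.

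In the p53 group, Trp53 rose while the p53 target Ccng1 fell. Trp53, which encodes p53, was at 23.3, 22.8, 20.1 and 23.6 CPM in the cKO replicates, 16.3 and 16.02 in floxed and 16.9 and 15.1 in Cre hearts. All cKO hearts lay above all controls, and Trp53 was called higher (log2 difference 0.48, SE 0.10, 1.39-fold higher, adjusted p = 0.0016). Ccng1, which encodes cyclin G1 and is induced by p53 (gene ENSMUSG00000020326, chromosome 11, 40748552 to 40755311), was at 356, 285, 359 and 292 CPM in cKO hearts, 678 and 701 CPM in floxed and 719 and 834 CPM in Cre hearts. It had the highest level per kilobase of the 39 genes, 209 CPM per kilobase in the controls and 91.9 in the cKO hearts. The cKO hearts were all far below the controls, and Ccng1 was called lower (log2 difference -1.18, SE 0.11, 2.27-fold lower, adjusted p = 2.59e-05), as in every alternative tried with no minimum fold. The mean of Ccng1 was 323 ± 40.1 CPM (SD, n = 4) in the cKO hearts and 733 ± 69.5 CPM (SD, n = 4) in the floxed and Cre hearts pooled. Mdm2, the ligase that degrades p53 and itself a p53 target, was at 46.6, 52.5, 49.4 and 39.7 CPM in the cKO replicates, 43.05 and 47.8 in floxed and 48.9 and 53.9 in Cre hearts, with overlapping groups (log2 difference -0.04, SE 0.10, adjusted p = 0.765).

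Of 26 other p53 targets, 8 were higher and 9 lower, with a median log2 difference of -0.01. This is 65.4% called, against 52.1% of all genes tested (25.6% higher and 26.5% lower). Bax, which encodes a pore former of apoptosis, was 2.29-fold higher (log2 difference 1.20, and 0.47 with the offset) and Phlda3 1.95-fold higher (0.96, and 0.32 with the offset). Rrm2b, the p53-inducible subunit of ribonucleotide reductase, was 2.59-fold lower, and all 3 had an adjusted p of 0.000167 or less. Btg2, an antiproliferative gene, was at 32.8, 27.4, 37.8 and 32.4 CPM in the cKO hearts, 359.9 and 527 CPM in the floxed hearts and 65.4 and 59.0 CPM in the Cre hearts. The floxed hearts stood apart, and the log2 difference was -3.76 against floxed and -0.93 against Cre hearts; Btg2 was also called between Cre and floxed hearts (log2 difference -2.83). Of 22 genes of DNA damage signalling, 3 were higher and 9 lower (54.5% called), with a median log2 difference of 0.03. With the offset 7 were higher and 7 lower, where 45.3% of all genes were called. Mdm4, a p53 inhibitor (1.89-fold), and Rad9a (1.88-fold) were higher, and Hus1, a partner of Rad9a in the checkpoint clamp (1.75-fold), and Xrcc5, the Ku80 end-joining subunit (1.68-fold), were lower, each with an adjusted p of 0.000449 or less.

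The 2 control groups were also taken one at a time. Against floxed hearts, 11 of the 39 genes were higher and 5 lower (41% called; 42.9% of all genes were called, 19.8% higher and 23.1% lower), with a median log2 difference of 0.47. Against Cre hearts, 5 were higher and 7 lower (30.8% called; 42.4% of all genes, 19.6% higher and 22.8% lower), with a median of 0.25. These comparisons share the cKO libraries. Cdk4 (log2 difference 0.52 against floxed and 0.52 against Cre), Ccnd3 (0.58 and 0.45), Trp53 (0.47 and 0.49), E2f1 (1.38 and 1.20) and Mcm6 (0.55 and 0.45) were called higher in both. E2f3 (-1.13 and -1.12), Ccng1 (-1.09 and -1.27), Rb1 (-0.61 and -0.82), Ccnd2 (-0.64 and -0.67) and Cdkn1b (-0.56 and -0.45) were called lower in both. Of these, Ccnd2 lost its call in 9 of 20 alternatives against floxed hearts and 10 of 20 against Cre hearts, leaving out cKO replicate 2 or cKO replicate 3 among them. Cdkn1b lost its call against Cre hearts in 8 of 20, and Mcm6 and E2f1 did so in 6 of 20 each. Ccnd3 lost its call against Cre hearts in 3, Cdk4 in 2 and Trp53 in 1. Against floxed hearts the call was lost in 4 for Cdkn1b, 3 each for Rb1 and Mcm6, and 2 each for E2f1 and Trp53. E2f3 and Ccng1 kept their calls in all 20 of both comparisons. The other 6 genes called higher against floxed hearts were Mcm7, Cdk2, Aurka, Plk1, Mki67 and Ccnb2, and the other 2 called lower against Cre hearts were Mcm4 and Cenpf. Ccnb2 (log2 difference 1.89, adjusted p = 0.0441) had 13 and 5 counts in the floxed hearts and lost its call in 10 of 20 alternatives. Cdk2 lost its call in 3, Mcm7 and Mki67 in 2 each, Aurka in 2 of 19 and Plk1 in 1 of 19. Against Cre hearts Mcm4 lost its call in 3 and Cenpf in none. Plk1 had a log2 difference of 2.05 (SE 0.50, adjusted p = 0.007) against floxed and 0.83 (SE 0.44, adjusted p = 0.153) against Cre hearts. The same values were 1.92 (SE 0.49, adjusted p = 0.00936) and 1.08 (SE 0.45, adjusted p = 0.0733) for Aurka. For Mki67 they were 1.01 (SE 0.30, adjusted p = 0.0199) and 0.01 (SE 0.28, adjusted p = 0.986). The difference between the 2 control groups was itself tested, and none of the 39 genes was called between Cre and floxed hearts. Over all genes 0.0981% were called, 0.00654% higher and 0.0916% lower in Cre. At an unadjusted p under 0.05 there were 4 of the 39, and DESeq2 and limma voom called none. For Plk1 that difference was 1.23 (SE 0.56), for Mki67 1.01 (SE 0.34), for Top2a 1.21 (SE 0.42) and for Cenpf 0.95 (SE 0.37), each with an adjusted p of 1. With 2 hearts per control group, the counts depended on single libraries. Leaving out 1 of these hearts kept a lone library in its control group. Fewer genes were then called against that group alone, both among the 39 and over all genes tested.

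The differences moved with transcript length in these libraries. Over the protein-coding genes tested, the median log2 difference was 0.79 for transcripts up to 1 kb and -0.40 for those over 8 kb, and across the 39 genes Spearman's rho between length and log2 difference was -0.46, a description over genes that share the same 8 libraries. With an offset for length and GC content, 13 of the 17 calls were kept, Mcm7, Ccnd2, Cdkn1b and Aurkb were lost, and Cdc45, Pcna, Tyms, Cdk6 and Mki67 were added. Over all genes 45.3% were called with the offset, against 52.1% without it. With a minimum of 1.5-fold, a rule chosen after seeing the data, 9 of the 39 genes were called (33.1% of all genes), 10 against floxed hearts alone (30.1%) and 6 against Cre hearts alone (29.3%). Scaling also moved the values. The median log2 difference of all genes was 0.16 with upper-quartile scaling and 0.17 with library size alone. The split of all genes called, 3909 higher and 4050 lower, became 4873 and 3351 with the first and 4753 and 2981 with the second. The cell cycle genes were then 13 higher and 7 lower, and 12 higher and 6 lower. For 13 members, among them Mcm7, Cdk2, Cdk4, Ccnd2, Ccnd3, Rb1 and Plk1, some exon bases are shared with a gene on the opposite strand. The strand setting is not given in the sources used here, so reads on those shared bases could come from either gene. Cdk2 shares 34 such bases with Pmel, and Cdk4 shares 641 with Tspan31. Pcna, Tyms, Ccnd3, Ccnb1, Ccnb2 and Trp53 have annotated pseudogenes of the same name that could share reads.

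**Figure D4:**
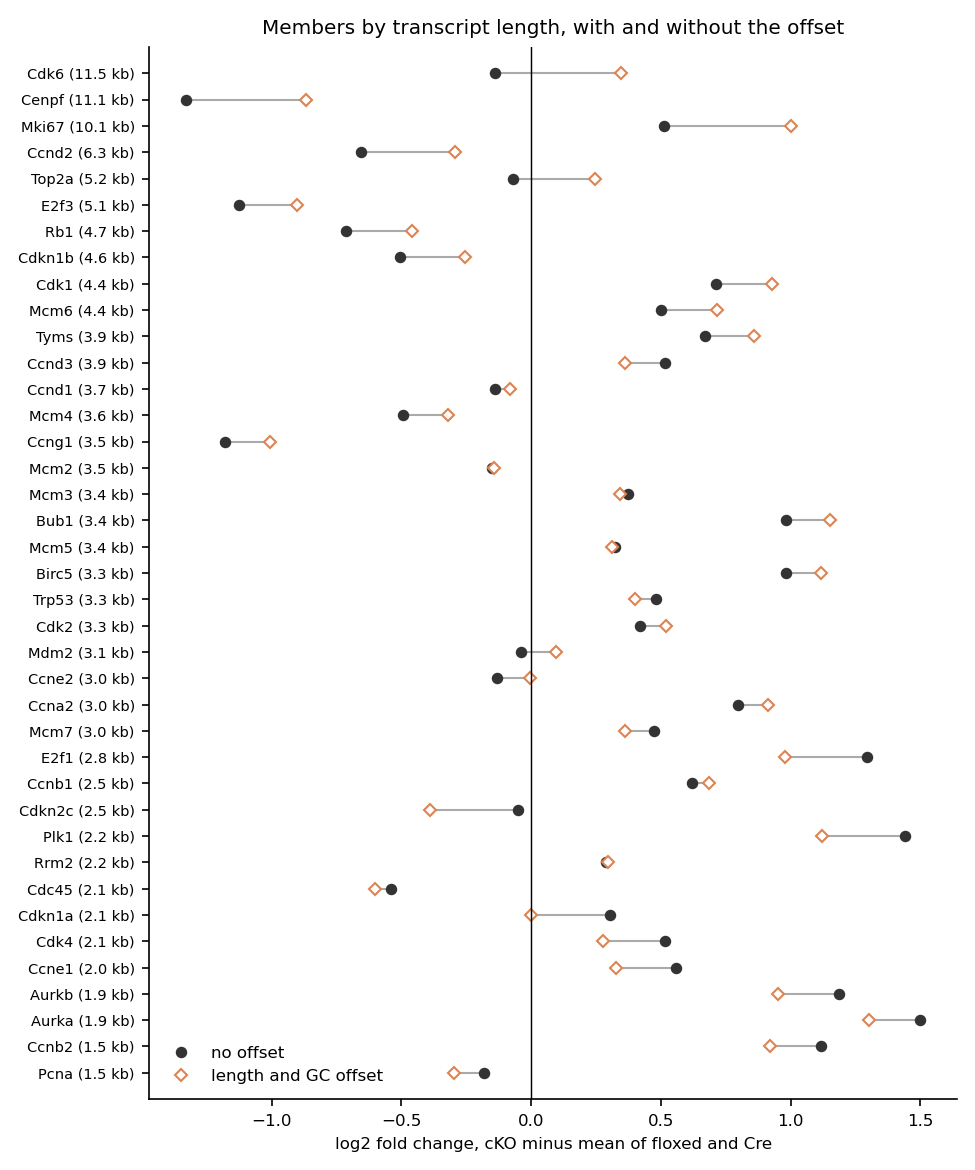
Log2 difference between the 4 cKO hearts and the mean of the 2 control groups for the 39 genes, ordered by transcript length from Pcna (1.52 kb) to Cdk6 (11.5 kb), without (filled) and with (open) the offset for length and GC content. The offset moves long genes such as Cdk6, Cenpf and Mki67 upward and short genes such as Cdk4 and Plk1 downward.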

How the data were processed

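RNA-seq libraries of 4 cKO, 2 floxed and 2 Cre hearts were aligned by the authors with STAR 2.5.1b to GRCm38 (mm10), per the submitters' processing notes; the counting tool, annotation and strand were not given in the sources used here. Deposited values were estimated counts per gene, and of the non-zero values in a library 72.0% to 76.3% were whole numbers. They were rounded to whole numbers, although the design had assumed plain counts. Genes passing edgeR's expression filter were fitted with edgeR 4.0.16 (R 4.3.3, limma 3.58.1) by TMM scaling and the robust quasi-likelihood test, with 1 mean for each of the 3 groups (5 residual degrees of freedom); p-values were adjusted by Benjamini-Hochberg over all 15289 genes at 0.05. The code was tested on simulated data. Alternatives used other scalings and filters, DESeq2 1.42.0, limma voom, an offset for length and GC content (mgcv 1.9.3), and each library left out. Figures used matplotlib 3.10.9. All members were named by role, and up to 4 called genes of each further list by smallest p. The members and lists were chosen with earlier results of these data known. Libraries of 1 group differed by more than counting noise, so none was counted as a duplicate. Promoters came from RefSeq, GRCm38.p6.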

Additional observations from a re-analysis of the deposited data

Results flagged for a closer look

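Within the 4 cKO hearts, 2 values stood apart from the other 3 by a gap wider than Dixon's critical value for groups of that size. Mcm6 was at 12.0 CPM in cKO replicate 4, a gap of 0.851 of the range. Cdkn1b was at 43.4 CPM in cKO replicate 1, a gap of 0.838 of the range. All 39 genes were looked at in this way, and chance flags about 1 in 20 such groups, so the number is within what chance would give. Against both controls together, both genes were called with all libraries and without the library that stood apart. Against Cre hearts alone, Mcm6 was not called without cKO replicate 4 (log2 difference 0.38, adjusted p = 0.0598).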

How the results depend on the processing

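Of 3103 recomputed values over 156 results, 2951 kept their side of the threshold, 105 lost a call, 45 gained one and 2 turned direction. A turn was counted only where the gene was called with the main settings or with the alternative. Turns of direction in genes called in neither are among the 2951. In the comparison with both controls, 4 of 10 genes called higher (Mcm6, Cdk4, Ccnd3 and Trp53) and 4 of 7 called lower (Rb1, E2f3, Cenpf and Ccng1) kept their call in all 20 alternatives that had been planned. With the replicate block the genes called were 11 in all and 4 higher against both controls, 10 and 6 against floxed hearts, 2 higher against Cre hearts, and 1 (higher) between Cre and floxed hearts, Cenpf (log2 difference 0.90, adjusted p = 0.0431). Over all genes tested, 41.7%, 34.9%, 34.6% and 0.549% were called in the same order, against 52.1%, 42.9%, 42.4% and 0.0981% with the main settings. That block removed Mcm7, Cdk2, E2f1, Aurka, Aurkb and Plk1 and turned Cdkn1a against Cre hearts (log2 difference -0.76, adjusted p = 0.0105). Deviations of same-numbered hearts correlated between -0.108 and 0.133, so the data do not show that the numbers pair them. The block used the replicate numbers of the sample titles, of which 3 and 4 occur only in cKO hearts. Those hearts were therefore fitted exactly and added nothing, so differences from the controls rested on cKO replicates 1 and 2. The library names number the floxed hearts differently. With a minimum of 1.5-fold, chosen after seeing the data, the counts were 9 and 4 higher against both controls (33.1% of all genes called), 10 and 6 higher against floxed hearts (30.1%), and 6 and 1 higher against Cre hearts (29.3%). With library size alone, 3 genes were lower against floxed and 4 against Cre hearts. Over all genes 2403 and 2588 were then lower, against 3528 and 3487 with the main settings. With the length and GC offset, 3 were lower against floxed hearts, and 7 were called against Cre hearts, 3 higher and 4 lower. Over all genes the offset gave 3115 lower against floxed hearts and 34.6% called against Cre hearts, 2256 higher and 3012 lower. Cdk6 turned to a log2 difference of 0.35. The cause of these changes was not tested.

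Leaving out 1 library at a time gave 14 to 22 genes called against both controls (7 to 15 higher, 7 to 8 lower), 5 to 19 against floxed hearts (3 to 11 higher, 2 to 8 lower), 6 to 13 against Cre hearts (0 to 6 higher, 4 to 7 lower) and 0 to 0 between Cre and floxed hearts. Against floxed hearts the lowest counts came without floxed replicate 1 (5) and floxed replicate 2 (7), and without cKO replicate 1 there were 8 lower. Against Cre hearts, 6 were called and none was higher without Cre replicate 2, 3 were higher without cKO replicate 4, and 4 were lower without Cre replicate 1. In these fits a lone library of a group is assumed to vary like the other groups. Where a lone control library remained, fewer of all genes tested were also called against that group alone. Pooling the controls, or fitting only the groups compared, applied to some of the comparisons only. The 9 genes with a library under 10 counts are those whose differences the depth limits most.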
